A study of Homo sapiens with 2 samples.

Results

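To explore where the LDB1 complex sits at the genes of the RUNX and ETO families, the deposited LDB1 peaks were searched around 7 genes: RUNX1, RUNX2 and RUNX3, their partner CBFB, and the ETO family genes RUNX1T1, CBFA2T2 and CBFA2T3. A peak was counted when it overlapped the GENCODE release 44 body of the gene with 50 kb added on each side. These are 7 of 20033 protein-coding genes, and 24 of 11046 peaks met the rule. The peaks came from NB4 cells, a human line of acute promyelocytic leukemia, profiled by CUT&Tag, in which a transposase led by an antibody to a chromatin protein inserts adapters into the DNA beside it. There were 2 libraries: an LDB1 antibody library that the labels place under LDB1 overexpression, and an IgG library labelled untreated. Antibody and treatment therefore differed together and cannot be told apart, and the methods of the study do not mention overexpression for CUT&Tag. Each group was a lone library without replicates, so no test was made between groups, and the IgG library entered no value here. The peaks had coordinates and lengths without any height or depth, and every interval given is a 95% interval of counting error within this library.

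RUNX proteins bind DNA through a shared domain, and CBFB, which does not touch DNA itself, strengthens that binding. The ETO family members are corepressors without sequence-specific DNA binding that bring histone deacetylase complexes to other factors. CBFA2T3 (also called ETO2 or MTG16) is a known member of the complex that LDB1 forms in blood cells with LMO2, TAL1 and GATA factors, and that complex is known for a composite DNA element in which part of an E-box precedes a GATA site. In leukemia, chromosome rearrangements fuse RUNX1 to RUNX1T1, CBFB to MYH11, and CBFA2T3 to GLIS2.

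The composite element was searched as CTG, then 7 or 8 bases, then a GATA motif (the letters GATA with A or T before them and A or G after them), on both strands. Of the 24 peaks, 6 (25%) held it somewhere in the peak, where 22.4% of all peaks did. These were 3 at RUNX1, 1 at CBFA2T2 and 2 at CBFA2T3. Only 2 of the 6 held it in the 200 bp around the midpoint, and none of these was at RUNX1. The stretches with these elements are shown because they are the sites in the family that carry the letters of the LDB1 complex element, read 5′ to 3′ from the hg38 genome. Capitals mark the CTG and the GATA motifs, together with any further motif named beside the stretch. Each stretch ends 6 bases beyond its outermost motif.

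The first 3 stretches lie in intron 2 of RUNX1. The longest RUNX1 peak, nearer the proximal promoter, is shown on the plus strand at chr21:34908612-34908677, where a GATA motif on the opposite strand reads CTATCT:
RUNX1, 140 kb inside the gene: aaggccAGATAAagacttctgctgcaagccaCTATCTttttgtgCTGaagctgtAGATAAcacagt
The stretch in the middle of the intron lies on the minus strand at chr21:34996402-34996430:
RUNX1, 53 kb inside the gene: tgcagcCTGctctcttcTGATAGatctcc
The stretch nearest to the distal promoter lies on the minus strand at chr21:35026886-35026990. It also holds an E-box (CAGATG) and a RUNX motif on the opposite strand (ACCACA):
RUNX1, 22.3 kb inside the gene: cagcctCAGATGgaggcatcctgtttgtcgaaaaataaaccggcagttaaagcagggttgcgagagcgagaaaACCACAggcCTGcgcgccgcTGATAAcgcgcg

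At the ETO family genes, the stretch of the longer peak in the CBFA2T2 window lies beyond the gene, on the plus strand at chr20:33689022-33689128:
CBFA2T2, 3′ flank: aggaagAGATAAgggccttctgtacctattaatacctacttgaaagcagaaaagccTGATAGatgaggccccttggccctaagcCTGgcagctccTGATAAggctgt
The stretch upstream of CBFA2T3 lies on the plus strand at chr16:89004261-89004403 and holds 2 composites and an E-box (CAGCTG):
CBFA2T3, upstream: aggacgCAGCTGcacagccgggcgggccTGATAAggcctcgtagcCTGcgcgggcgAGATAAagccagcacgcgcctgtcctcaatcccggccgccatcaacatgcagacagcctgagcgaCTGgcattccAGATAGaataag
The composite at the CBFA2T3 start site lies in the non-coding part of exon 1, on the plus strand at chr16:88977087-88977115, and here all of its letters are in capitals:
CBFA2T3, exon 1: agccagCTGTGTCCCCGTGATAAtgccgg

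To compare the 7 genes, the peaks in each window were counted. Results showed that 4 of the 7 genes (RUNX1, RUNX2, CBFA2T2 and CBFA2T3) had a peak, where 44.8% of all protein-coding genes did. CBFA2T3 had 16 peaks (interval 9.15 to 26), RUNX1 had 5 (1.62 to 11.7), CBFA2T2 had 2 and RUNX2 had 1. RUNX3, CBFB and RUNX1T1 had 0, and a count of 0 allows up to 3.69 peaks. The intervals of CBFA2T3 and RUNX1 overlap as counts, but the windows differ in size. Per Mb of window, CBFA2T3 had 79.1 peaks (45.2 to 128), CBFA2T2 7.69, RUNX1 3.80 and RUNX2 2.29, where chromosomes 1 to 22 and X had 3.64. The 7 windows together had 8.57 peaks per Mb, and without CBFA2T3 the other 6 had 3.08. The density above that of the genome therefore rested on CBFA2T3.

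**Figure D1:**
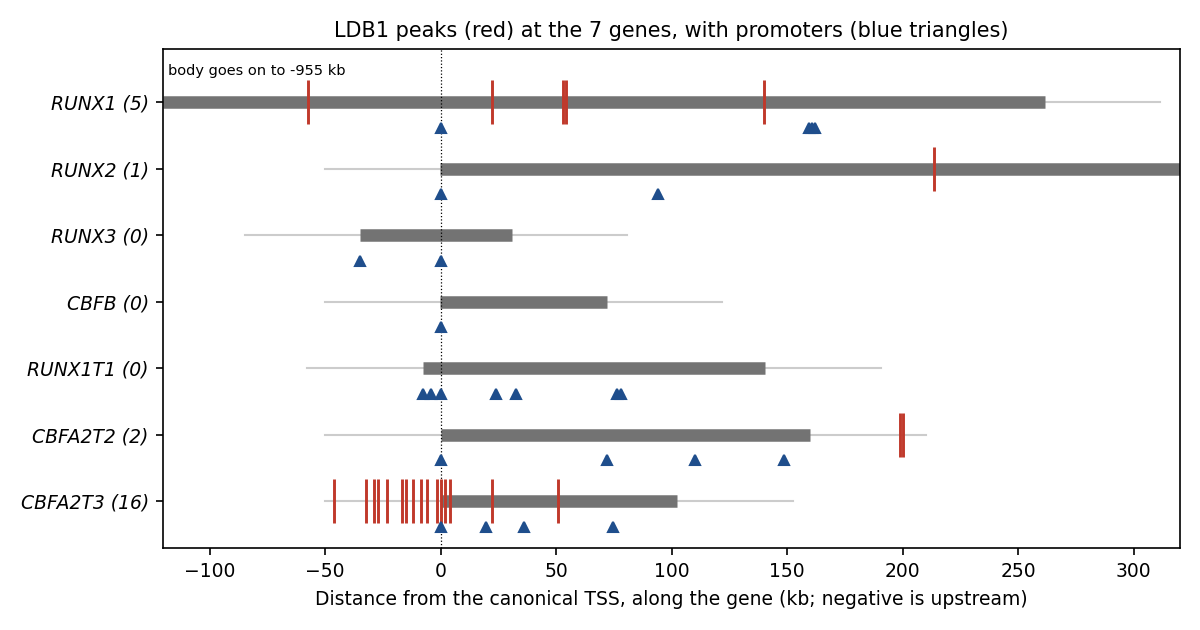
Map of the 7 genes, with distance from the start of the canonical transcript in kb on the x axis and 1 row per gene (number of peaks in brackets). Thick bars are gene bodies, thin lines the added 50 kb, red lines peak midpoints and blue triangles promoters; the 16 peaks at CBFA2T3 gather around and upstream of its first promoter, while at RUNX1 4 of the 5 lie in intron 2 and 1 lies upstream of the distal promoter.

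The counts were then set beside all protein-coding genes, whose windows can share peaks. Only 36 of the 20033 genes (0.18%) had as many peaks as CBFA2T3 or more, and 99.4% had a lower density. For RUNX1, with a window of 1.32 Mb, 6.32% of genes had as many peaks or more, but only 57.0% had a lower density. The median was 1 peak over the 7 genes and 0 over all genes, and the highest count of any gene was 50. A peak inside the gene body was found at 3 of the 7 genes (RUNX1, RUNX2 and CBFA2T3), where 16.5% of all genes had one. The 7 bodies ran from 65.6 kb at RUNX3 to 1217 kb at RUNX1, and the 16.5% was not adjusted for gene length. A peak within 3 kb of the gene's own transcription start site (TSS) was found at 1 of the 7, CBFA2T3, where 8.28% of all genes had one.

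**Figure D2:**
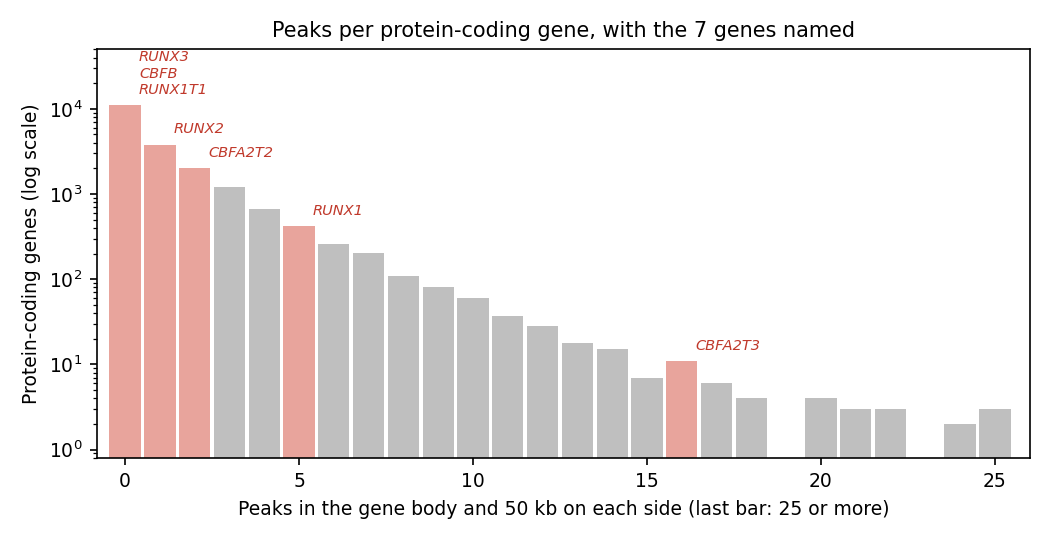
Number of protein-coding genes (y axis, log scale) by the number of LDB1 peaks in the body and 50 kb on each side (x axis, last bar 25 or more). Red bars hold the 7 named genes; CBFA2T3 with 16 peaks lies in the tail that 36 genes share, and RUNX3, CBFB and RUNX1T1 lie in the bar at 0.

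RUNX1 (ENSG00000159216.19, chr21:34787801-36004667, minus strand, hg38) encodes the RUNX protein needed for blood stem cells to form. Its annotated body of 1217 kb rests on a transcript, RUNX1-214, that starts 955 kb upstream of the distal promoter, and the canonical transcript RUNX1-218 spans 261.5 kb. The distal promoter (P1) has its start at 35049302 and the proximal promoter (P2) at 34888690, 160.6 kb apart. These promoters are known to give rise to isoforms that differ at the amino end. No RUNX1 promoter had a peak within 3 kb. The nearest midpoint was 22.3 kb from P1 and 20.6 kb from P2, and 315.8 kb from the start of RUNX1-214.

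Of the 5 RUNX1 peaks, 4 lay in intron 2 of the canonical transcript, between P1 and P2. The longest, chr21:34908452-34910193 (1742 bp), had its midpoint 20.6 kb upstream of P2 and was the 247th longest of all 11046 peaks. It held 10 GATA motifs, 1 composite and 2 E-boxes, and 3 of these GATA motifs stand within the 66 bases shown. Closer to P1, the peak chr21:35026645-35027361 (717 bp) lay 22.3 kb inside the gene and was the only RUNX1 peak with a RUNX motif. It was also the richest of the 24 in CpG, at 57.2 per kb. A blood stem cell enhancer of RUNX1 is known in the intron between P1 and P2, and whether this peak matches it was not tested. A pair of shorter peaks stood 899 bp apart in the middle of the intron, chr21:34994981-34995223 (243 bp) with none of the motifs searched, and chr21:34996123-34996504 (382 bp) with 2 GATA motifs and 1 composite.

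The last RUNX1 peak, chr21:35106046-35106985 (940 bp), lay 57.2 kb upstream of P1 and held 4 GATA motifs and 1 E-box. It belongs to RUNX1 only through the long transcript: with the canonical transcript and 50 kb as the window, RUNX1 had 4 peaks. The central 31 bases of all 5 RUNX1 peaks were found once in the genome. GATA motifs were thus in 4 of the 5 peaks, where 71.4% of all peaks had one, and composites in 3, where 22.4% did. Per kb of peak, the RUNX1 peaks had 0.746 composites (0.154 to 2.18), an interval that held the 0.432 of all peaks. Of the 17 GATA motifs, 14 stood in the 2 longest peaks.

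**Figure D3:**
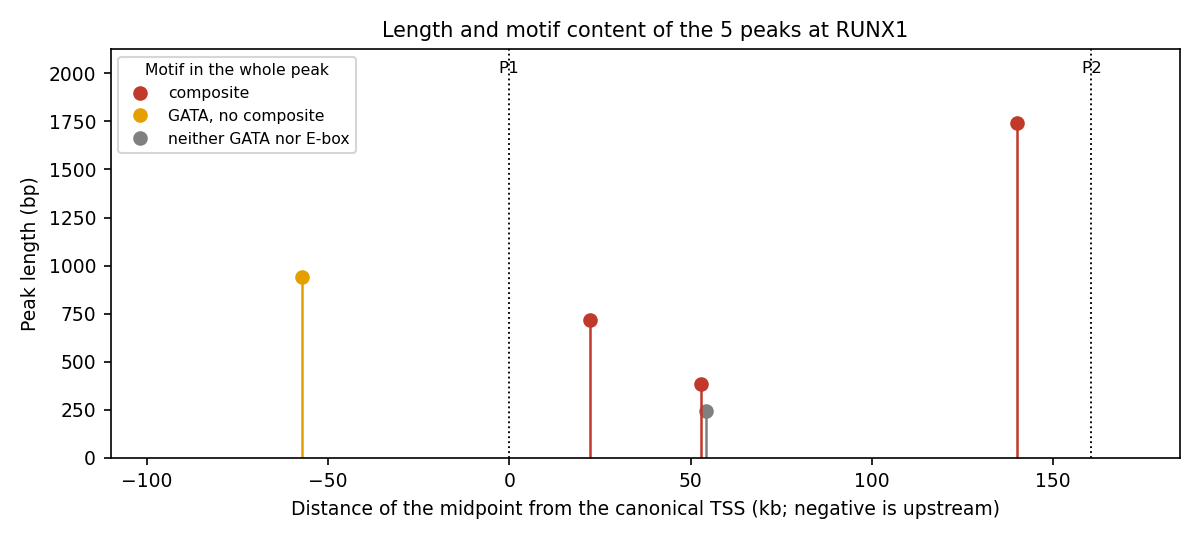
The 5 RUNX1 peaks by distance of the midpoint from P1 (x axis, kb, negative is upstream) and length (y axis, bp), coloured by the motif in the whole peak, with P1 and P2 as dotted lines. The peaks with a composite (red) all lie between P1 and P2, and neither promoter has a peak at it.

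RUNX2 (ENSG00000124813.23, chr6:45328157-45664349, plus strand), the RUNX protein of bone formation, had 1 peak of 465 bp, chr6:45541741-45542205, in intron 7 of the canonical transcript. Its midpoint was 213.6 kb from the canonical start and 119.4 kb from the nearer of the 2 promoters. The peak held 1 GATA motif, 1 E-box and 1 AP-1 motif (TGACTCA, the letters to which FOS and JUN proteins bind), but no composite and no RUNX motif. The AP-1 motif is shown because it lies in the only RUNX2 peak, on the plus strand at chr6:45542055-45542073:
RUNX2, intron 7: caaacgTGACTCAggataa

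RUNX3 (ENSG00000020633.19, chr1:24899511-24965121, minus strand), a RUNX protein of lymphocytes, had no peak, and the nearest lay 266.9 kb from the gene. CBFB (ENSG00000067955.15, chr16:67028984-67101058, plus strand) had none either. Its nearest peak, chr16:66971329-66971577 (249 bp), stood 57.4 kb from the gene and so just outside the window, and a window of 100 kb gave CBFB 2 peaks. No depth was available to say how weak a signal would have been missed.

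RUNX1T1 (ENSG00000079102.17, chromosome 8, 91954972 to 92103286, minus strand), the ETO gene itself, has 7 annotated promoters. The nearest peak to the gene was 1307 kb away, the largest such gap among the 7 genes. CBFA2T2 (ENSG00000078699.22, chr20:33490075-33650036, plus strand), an ETO corepressor expressed in many tissues, had both of its peaks in the 3′ flank, 38832 and 39973 bp beyond the gene. The closer, chr20:33688868-33689502 (635 bp), held 3 GATA motifs and the composite shown above, and the other, chr20:33690009-33690302 (294 bp), held 1 GATA motif and 2 E-boxes. The protein-coding TSS nearest to both was that of E2F1, a cell cycle factor, at 2800 and 3770 bp, and not one of the 4 CBFA2T2 promoters. Assignment to CBFA2T2 therefore rests on the window alone.

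CBFA2T3 (ENSG00000129993.15, chr16:88874858-88977207, minus strand) had 5 peaks in the gene body and 11 upstream of it, and none in the 50 kb beyond its 3′ end. Within the body 4 peaks lay in intron 1 and 1 over the start of exon 1, so the other introns of the canonical transcript had none. The 16 peaks covered 15162 bp, or 7.49% of the window. From intron 1, 4.1 kb inside the gene, to 32.2 kb upstream of it, 13 peaks followed each other with gaps of 300 to 5600 bp (median 1514 bp). Joined at gaps of up to 10 kb, these 13 peaks formed a run of 36.6 kb, chr16:88972924-89009534, with 14093 bp covered. Among 7168 such runs in the library it ranked 4 by covered length and 9 by number of peaks, and the largest run held 26.

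Alternative promoters were examined next. CBFA2T3 has 4 promoters, and 2 of them had a peak within 3 kb, the only such promoters among the 25 of the 7 genes. The canonical promoter, 88977080 to 88977207, lay inside a peak of 1854 bp, chr16:88976231-88978084, whose midpoint was 50 bp from a TSS. This peak held the exon 1 composite 106 bp downstream of the start, 8 E-boxes, 1 ETS motif (AGGAAGT or CGGAAGT, on either strand) and 1 AP-1 motif. The CTG of that composite is at the same time the end of an E-box, CAGCTG. The other promoter, at 88957775 in intron 1, had a peak of 264 bp at 2713 bp, chr16:88954931-88955194. That peak was repetitive. Of its 12-base words 80.2% recurred within it, and hg38 held 8 copies of its central 31 bases. The remaining 2 promoters had their nearest midpoints at 13.2 and 24.1 kb.

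The longest peak of the 24, chr16:88990661-88993582 (2922 bp), lay 14.9 kb upstream of CBFA2T3 and was the 34th longest of all peaks. It held 11 E-boxes and 2 GATA motifs, and no composite. The next in length, chr16:88982148-88984075 (1928 bp), lay 5.9 kb upstream and held 5 E-boxes but no GATA motif. It covered the TSS of a long non-coding RNA gene, ENSG00000259989 (chr16:88984032-88995369, plus strand), which runs away from CBFA2T3. A further 4 peaks, the longest among them, lay inside this non-coding gene, so these 5 peaks can be assigned to either gene.

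The peak with 2 composites, chr16:89003284-89005005 (1722 bp), lay 26.9 kb upstream. Its 7 GATA motifs made up more than all the other CBFA2T3 peaks together, which held 6 of the 13. It also held 6 E-boxes and 1 RUNX motif. Between it and the non-coding gene stood a peak of 814 bp, 23.1 kb upstream, with 2 RUNX motifs, 2 E-boxes, 1 GATA motif and 1 AP-1 motif. By motif, 2 of the 16 peaks had a composite, 4 a GATA motif without one, 5 an E-box without a GATA motif and 5 neither. Of all peaks, 22.4% had a composite, 71.4% a GATA motif and 60.0% an E-box. Besides the intron 1 peak, 2 others were over 20% internal repeat, at 32.2 kb upstream (28.7%) and 46.1 kb upstream (44.7%). In the whole list 140 of 11046 peaks (1.27%) were.

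**Figure D4:**
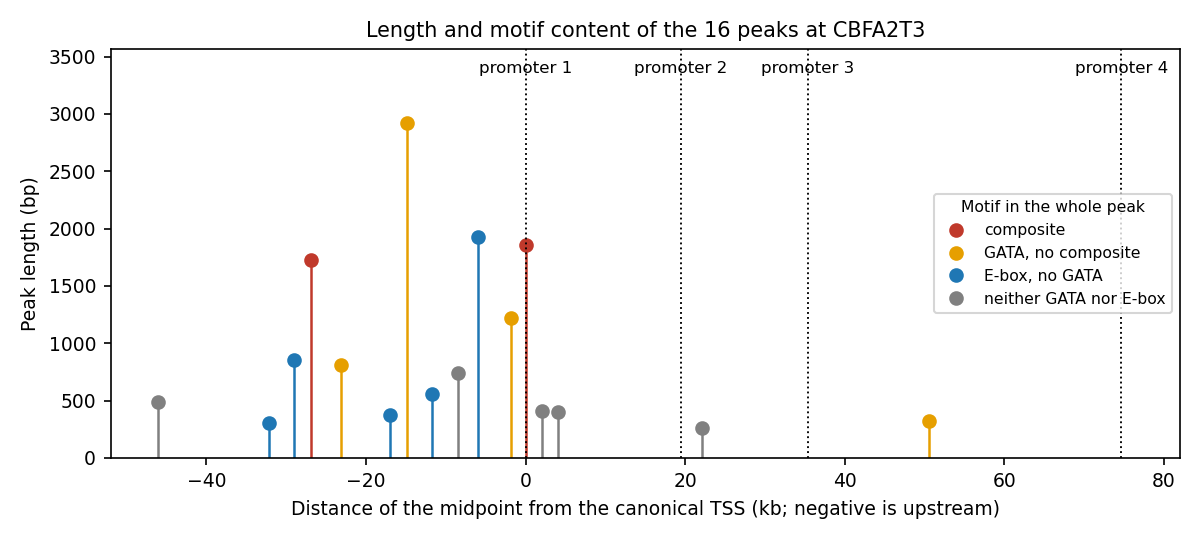
The 16 CBFA2T3 peaks by distance of the midpoint from the canonical start (x axis, kb, negative is upstream) and length (y axis, bp), coloured by the motif in the whole peak, with the 4 promoters as dotted lines. Composites (red) stand at the start site and 26.9 kb upstream, and the longest peak, 2922 bp, stands between them.

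The window had an edge that could decide a count. The farthest counted peak was 45853 bp from CBFA2T3 and 39973 bp from CBFA2T2, and the nearest peaks left out were 74.3 kb and 66.3 kb away. For RUNX1 and RUNX2 the nearest left out were 315.4 and 853.9 kb away.

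Length was the only measure of size in the files. The 24 peaks ran from 243 to 2922 bp with a median of 597 bp, and all peaks ran from 229 to 4856 bp with a median of 451 bp. The median was 649.5 bp at CBFA2T3 and 717 bp at RUNX1, and their ranges overlapped. Peaks over 1000 bp were 6 of the 24, 5 of them at CBFA2T3 and 1 at RUNX1, where 10.5% of all peaks were that long. CBFA2T3 peaks had a median of 64.1% G and C, RUNX1 peaks 52.1% and all peaks 51.4%. CpG stood at a median of 31.7 per kb at CBFA2T3, 18.1 at RUNX1 and 13.9 in all peaks. Within 3 kb of any annotated TSS lay 7 of the 24 peaks (29.2%, 14.9 to 49.2%), where 35.6% of all peaks did. These were 6 of the 16 at CBFA2T3, 1 of the 2 at CBFA2T2 and none at RUNX1 or RUNX2.

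To examine which motifs the peaks share, the 200 bp around each midpoint were searched first. The GATA motif was found in 6 of the 24 (25%, 12 to 44.9%), where 47.1% of all peaks had it. It was in 3 of the 5 RUNX1 peaks and 2 of the 16 CBFA2T3 peaks. The composite was found in 2 (8.33%, 2.32 to 25.8%), where 11.2% of all peaks had it. The E-box (CAGATG or CAGCTG, the letters that TAL1 and its E-protein partners bind) was found in 8 (33.3%, 18.0 to 53.3%), where 33.8% had it. The RUNX motif (TGTGGT or TGCGGT) was found in 4 (16.7%, 6.68 to 35.9%), 3 of them at CBFA2T3 and 1 at RUNX1, where 20.5% had it. ETS motifs were found in 1 (4.17%), where 6.18% had one, and AP-1 motifs (TGAGTCA or TGACTCA) in 2 (8.33%), where 9.5% had one. Apart from GATA, each of these shares in the central 200 bp had an interval that held the share of all peaks, and the 24 peaks came from only 4 loci. The GATA interval held the share of all peaks in the central 100 bp (12.5%, 4.34 to 31%, against 28.2%) and over the whole peak. The lower GATA share in the central 200 bp rested on CBFA2T3, since 4 of the 8 peaks at the other genes had the motif there.

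Over the whole peak, which also counts motifs away from the midpoint, GATA was in 13 of the 24 (54.2%, 35.1 to 72.1%) against 71.4% of all peaks, and the composite in 6 (25%, 12 to 44.9%) against 22.4%. Only 2 of these 6 composite-bearing peaks had the element in the central 200 bp. Longer peaks hold more sequence, so sites were also counted per kb of peak. The 24 peaks together had 1.70 GATA motifs per kb (1.18 to 2.37), an interval below the 2.64 of all peaks. The 8 peaks outside CBFA2T3 had 4.06 (2.54 to 6.15). CBFA2T3 peaks had 0.857 GATA motifs per kb (0.457 to 1.47) and RUNX1 peaks 4.22 (2.46 to 6.76), where all peaks had 2.64. The RUNX1 and CBFA2T3 intervals did not overlap, and that of RUNX1 held the value of all peaks. All these per kb intervals treat each site as independent, although sites gathered in a few peaks, and so may be too narrow. Of the 17 GATA motifs at RUNX1, 14 stood in 2 peaks, and of the 13 at CBFA2T3, 7 stood in 1. E-boxes went the other way by value, with 2.70 per kb (1.94 to 3.67) at CBFA2T3 and 0.994 (0.271 to 2.55) at RUNX1 against 1.94 in all peaks, but these intervals overlapped. RUNX motifs were at 0.594 per kb (0.271 to 1.127) in CBFA2T3 peaks, where all peaks had 1.128, just above that interval. In the 24 peaks together they were at 0.486 per kb (0.233 to 0.894), also below the value of all peaks. The G and C content of the peaks moved with the GATA values, with medians of 64.1% at CBFA2T3 and 52.1% at RUNX1, and its part in them was not tested.

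**Figure D5:**
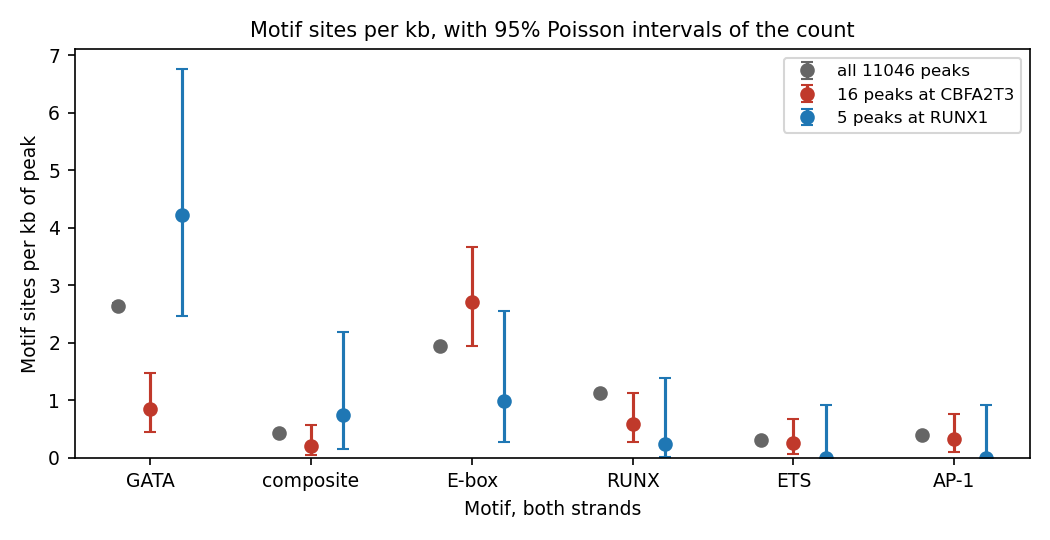
Motif sites per kb of peak (y axis) for 6 motifs (x axis) in all 11046 peaks (grey), the 16 CBFA2T3 peaks (red) and the 5 RUNX1 peaks (blue), with 95% Poisson intervals of the number of sites. GATA motifs stand at 0.857 per kb at CBFA2T3 and 4.22 at RUNX1. Their intervals do not overlap, but they treat sites gathered in a few peaks as independent.

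The proteins that work with RUNX and ETO factors were then examined in the same windows, as a list of 24 cofactor, partner and fusion genes. It includes LMO2, LYL1 and LDB1, which the study itself centres on or names. A peak was found at 15 of the 24 genes, where 44.8% of all genes had one, and the median was 1 peak, where all genes had 0. Inside the gene body 9 of the 24 had a peak, where 16.5% of all genes did, and the others rested on the added 50 kb. These shares were not adjusted for gene length. LMO2, the bridging partner of LDB1, had the most with 10 peaks, followed by LYL1, a TAL1-related factor, with 7 and ZBTB16, a zinc finger repressor bound by ETO proteins, with 5. Per Mb of window LMO2 had 74.9 and LYL1 67.2, given without intervals, beside the 79.1 of CBFA2T3. Of these peaks, 3 of the 10 at LMO2 and 2 of the 7 at LYL1 lay in the gene body, and the others in the added 50 kb. A peak within 3 kb of a TSS of the gene was found at 4 of the 24, where 8.28% of all genes had one. These were SUV39H1 and the LMO2, LYL1 and LDB1 genes that the study centres on or names.

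Of the corepressors through which ETO proteins act, those named next had 0 to 2 peaks each, where the median over all genes was 0. NCOR1 and HDAC3, which work in a deacetylase complex, had 2 each, HDAC2 had 1, and HDAC1 and SIN3A had 0. Among E-proteins, the partners of TAL1, TCF12 had 3, TCF3 had 2 and TCF4 had 1. SUV39H1, a histone methyltransferase, had 3. Of the fusion partners, ETV6 and GLIS2 had 2 each, and MYH11 and MECOM had 0. The other genes without a peak were TLE1, TLE4, EP300, KAT6A and PRMT1, while TLE3, a Groucho corepressor, and LDB1 itself had 1 each.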

How the data were processed

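CUT&Tag of NB4 cells gave 1 LDB1 and 1 IgG library. The authors aligned reads to hg38 with Bowtie2 2.4.4 and called peaks with MACS3 3.0, per the methods and the submitters' processing notes. Whether IgG was the control is not given in the sources used here. The deposited values were start, end and length of each LDB1 peak in bp, counted from 1, with no score or summit, so the midpoint was used. Depth per library is unknown.

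Overlap of 1 bp with the GENCODE 44 body and 50 kb on each side made a peak a member. Promoters were TSS of protein-coding transcripts joined at under 1 kb. The canonical transcript is that of Ensembl. Motifs were exact letters on both strands, and a composite counts as a GATA site too. Shares have Wilson intervals and counts exact Poisson intervals. Described singly were the 3 longest peaks, the longest of each gene, and those with a composite or at a promoter. The remaining RUNX1 and CBFA2T2 peaks were added so that each peak of these genes is given, and the CBFA2T3 peak 23.1 kb upstream and those with internal repeats were chosen after their values were seen. Counting was tested on simulated data. Scripts ran in Python 3.11.15 with pysam 0.24.0, pandas 2.3.3, numpy 2.4.6, SciPy 1.17.1 and matplotlib 3.10.9.

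Members, lists and rules were chosen with earlier results of these data known. Of the cofactor list, 1 gene is counted but not reported by name here. Alternatives were other gene windows, TSS windows, motif windows, merged peaks and the longest peaks. The canonical transcript window, the runs joined at 10 kb and the internal repeats were chosen after seeing the data.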

Additional observations from a re-analysis of the deposited data

How the results depend on the processing

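No paired analysis was possible because there was 1 library of each kind. Peaks had no height, so weak and strong signal could not be separated, and nothing here compares LDB1 with IgG. The number of peaks at the 7 genes was 24, and became 11 in the gene bodies alone, 12 with 3 kb added and 15 among the longest 5523 peaks, each by construction. At CBFA2T3 alone these counts were 5, 6 and 10. With peaks under 1 kb apart merged, 18 peaks remained at the 7 genes and 12 at CBFA2T3. The share near a TSS was 8.33% within 1 kb. Over the whole peak, 54.2% had a GATA motif and 62.5% an E-box, and in the central 100 bp the composite and the ETS motif were each found in 0 of 24 peaks, again by construction of the window. Of 55 values of these results under an alternative, 47 stayed within their interval or within 1.5 times the count and 8 did not. For counts at single genes these numbers were 39 and 10 of 49. With the canonical transcript and 50 kb as the window, 23 peaks remained.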
